A study of Homo sapiens with 42 samples.

Results

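The C-terminal disordered region of HIF-1α was exchanged for that of HIF-2α while the N-terminal structured domain was kept, and the RNA of the cells was compared with that of cells carrying the unswapped HIF-1α. Members were chosen by their labels alone: 3 libraries of 786-O cells expressing the chimera HIF-1α/2α against 3 libraries of 786-O cells expressing HIF-1α, which makes 6 of the 42 libraries of the series. The series measured poly-A RNA of 786-O cells in 2 batches, and 15 libraries of the second batch cover 5 groups of 3. Beside the 6 libraries these are WT cells, HIF-2α cells and cells with the reverse chimera HIF-2α/1α. The first batch was not used here because it holds no chimera.

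786-O is a clear cell renal cell carcinoma (ccRCC) line without functional VHL and without functional HIF-1α, in which endogenous HIF-2α stays active. The WT cells are unedited and carry no transgene. Every other group is WT cells with a stably integrated transgene that encodes a V5- and Halo-tagged HIF-α protein under the weak L30 promoter, so all groups, WT included, also hold the endogenous HIF-2α. HIF-1α/2α joins residues up to 363 of HIF-1α to residues 366 to 870 of HIF-2α, and HIF-2α/1α joins residues up to 365 of HIF-2α to residues 364 to 826 of HIF-1α. Each construct is represented by a single drug-selected cell population, so a difference between constructs and a difference between cell populations cannot be told apart. The 3 replicates of a group are named biological replicates by the study, and the p-values measure the spread between them.

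HIF-α proteins bind DNA as dimers with HIF-1β (ARNT) through an N-terminal structured domain that holds the bHLH and PAS folds, and the sites they bind, hypoxia response elements, share a short core sequence. The remainder of the protein is an intrinsically disordered region (IDR) that carries the oxygen-dependent degradation and transactivation segments. In ccRCC, HIF-1α is best known for genes of glycolysis and mitophagy, and HIF-2α for growth factor and cell cycle genes such as TGFA and CCND1.

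The 6 libraries held 77168377 to 108727279 counted reads. Levels are given as normalised read counts, which are raw counts divided by the library's TMM-scaled size and brought to a common depth, and 3 counts in a library correspond to 2.46 to 3.52 on this scale. Log2 levels of 14017 genes correlated at 0.994 to 0.997 between libraries of the same line and at 0.967 to 0.970 between HIF-1α and HIF-1α/2α. All 8 markers of kidney tubule and ccRCC, PAX8 among them, were detected, with a summed level of 425705 to 431894 in HIF-1α and 421837 to 444431 in HIF-1α/2α. The 3 markers of other epithelia summed to 4.73 to 6.74 in HIF-1α and 8.2 to 14.1 in HIF-1α/2α, those of endothelial cells to 7.57 to 12.6 and 8.2 to 15.0 and those of immune cells to 4.7 or less, and their part in the results was not tested.

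The transgenes were checked first. HIF1A read 13688, 13029 and 12743 in the HIF-1α libraries, 10216, 9675 and 8949 in the HIF-1α/2α libraries and 263, 303 and 312 in WT. EPAS1, the gene of HIF-2α, read 17402, 16502 and 15147 in HIF-1α, 51948, 53174 and 47259 in HIF-1α/2α and 12035, 12256 and 13507 in WT. HIF1A was thus above WT in both lines, and EPAS1 was highest in HIF-1α/2α, as the labels have it. Counts per gene cannot show that both parts of the chimera lie in the same transcript. EPAS1 counts in HIF-1α/2α mix the transgene with the endogenous gene. Divided by the coding length that each transgene carries, HIF1A reads above the WT mean were 5190 ± 196 per kb in HIF-1α and 8559 ± 584 per kb in HIF-1α/2α (SD, n = 3), so the chimera was present at a higher RNA level on this scale. EPAS1 reads above WT came to 25211 ± 2061 per kb in HIF-1α/2α. The parts of the chimera thus gave unlike values per kb, and EPAS1 was also above WT in HIF-1α cells, whose transgene holds none of it. This scale is therefore a rough measure of the transgene level. The transgene level and the IDR change together and cannot be told apart. ARNT, the shared partner, was at 3700, 3542 and 3281 against 3727, 3630 and 3225, a log2 difference of 0.03 ± 0.07 (SE; edgeR adjusted p = 0.843).

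With the HIF-2α IDR in place of the HIF-1α IDR, 505 genes were higher and 832 were lower. They include higher GFRA2, CPE, CA12, EGLN3, HSD3B7 and PLXNA2 and lower ALDOC, PPFIA4, CA9, ALDH1A1, BNIP3 and EREG, with differences between 5.17-fold and 54.1-fold. A gene was called at an adjusted p of at most 0.01 in edgeR's quasi-likelihood test and a fold change of at least 2, over 28684 of 60609 genes. The calls are 1.76% of the tested genes in the higher direction and 2.90% in the lower direction. Among the 12718 genes with a mean level of at least 100, 282 (2.22%) were higher and 412 (3.24%) were lower. The groups of 3 libraries did not overlap in 491 of the 505 and in 829 of the 832 genes. The calls were made in these same libraries, so this describes the called genes and adds no support. The share without overlap among all tested genes is not given. The median log2 difference was 1.81 among the called higher genes and -1.77 among the called lower ones, and 106 and 169 of them differed by at least 3 on the log2 scale. The median over all tested genes was 0.0078.

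Both sets were compared with the level in WT cells, as a description, because the calls and the WT differences share libraries. Of the 505 higher genes, 352 had WT below both lines, 148 had WT between them and 5 had WT above both. Of the 832 lower genes, 145 had WT below both, 448 had WT between and 239 had WT above both. The higher genes had a median log2 difference from WT of 0.55 in HIF-1α and 2.72 in HIF-1α/2α. The lower genes had medians of 0.60 in HIF-1α and -1.31 in HIF-1α/2α, so their typical member was above WT with the HIF-1α IDR and below WT with the HIF-2α IDR.

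The 10 called genes with the largest log2 difference in the higher direction at a mean level of at least 100 were headed by genes that were close to silent in HIF-1α cells. LHX5, a LIM homeobox transcription factor of neural development, was at 3607, 4297 and 4377 in HIF-1α/2α and had no read in the 3 HIF-1α libraries, at least 1422-fold higher against the floor of 3 counts per library. It was at 442, 420 and 439 in HIF-2α and at 2.2 or less in HIF-2α/1α. LHX5 was thus detected in every library with the HIF-2α IDR and was near 0 in the other 3 groups. Its antisense neighbour LHX5-AS1 was at 207, 282 and 250 against 0, at least 85.5-fold higher, and without strand the split of reads between the pair is uncertain. CASP14, a caspase of keratinocyte differentiation, was at 5792, 5662 and 5466 in HIF-1α/2α with 1 read in all HIF-1α libraries, a ratio of 17875 (95% exact interval 3208 to 706058, counting error only). SH2D1B, an adaptor of SLAM-family receptors, was at 1490, 1166 and 922 with 4 reads in HIF-1α, a ratio of 931 (363 to 3420).

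GFRA2, a receptor of GDNF-family ligands, was the most abundant of the 10. Its levels were 16633, 16299 and 14883 in HIF-1α/2α against 323, 308 and 253 in HIF-1α, a log2 difference of 5.77 ± 0.10 (adjusted p = 2.40e-38), and 0, 10.4 and 7.0 in WT. HIF-2α cells were at 14584, 13872 and 13699, alongside HIF-1α/2α. GDNF, a ligand of the same family, was at 363, 361 and 392 against 6.7, 9.7 and 3.8 (5.78 ± 0.32, adjusted p = 2.23e-19). SFRP2, a secreted antagonist of Wnt signalling, was at 558, 534 and 697 against 0, 8.7 and 1.9 (7.37 ± 0.38, and 9.13 without HIF-1α replicate 2). LY6K, a GPI-anchored surface protein, was at 665, 648 and 751 against 1.9, 7.8 and 18.0 (6.21 ± 0.27, and 7.14 without HIF-1α replicate 3). TIMP3, an inhibitor of matrix metalloproteinases, was at 424, 532 and 434 against 6.7, 6.8 and 3.8 (6.32 ± 0.28). TIMP3 lies within SYN3 on the opposite strand, and SYN3, a synapsin, was at 298, 281 and 274 with 2 reads in HIF-1α. Reads were counted without strand, so the split of reads between these 2 genes is uncertain.

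In the lower direction and at the same mean level of at least 100, the largest difference was in ALDOC, the brain-type aldolase of glycolysis. ALDOC was at 97.6, 110 and 96.2 in HIF-1α/2α against 3680, 3408 and 2785 in HIF-1α, a log2 difference of -5.01 ± 0.16 (adjusted p = 1.25e-27), with WT at 241, 212 and 321. The chimera was thus below WT and HIF-1α far above it. SPRY1, an inhibitor of receptor tyrosine kinase signalling, was at 28.7, 11.7 and 16.0 against 390, 402 and 401 (-4.32 ± 0.24), with WT at 2.9 to 6.0. The long non-coding RNA AL161431.1 was at 36.9, 12.9 and 21.4 against 490, 533 and 434 (-4.27 ± 0.27).

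ALDH1A1, a retinaldehyde dehydrogenase, was among the lower genes that WT cells express. It was at 437, 493 and 614 in HIF-1α/2α against 8289, 7983 and 7718 in HIF-1α (-3.95 ± 0.10, adjusted p = 4.72e-31), and at 4906, 5153 and 6974 in WT. CYP1B1, a cytochrome P450 that oxidises steroids and polycyclic hydrocarbons, was at 260, 294 and 239 against 5333, 5784 and 4393 (-4.28 ± 0.11), and WT at 8818, 10257 and 10034. GASK1B, a Golgi-associated protein, was at 58.3, 62.3 and 62.0 against 956, 872 and 806 (-3.84 ± 0.16), with WT at 692, 834 and 871. In these genes HIF-1α/2α stood apart from both HIF-1α and WT. KRT81, a hair keratin (-4.39 ± 0.20), and UGT2B4, a glucuronosyltransferase (-3.78 ± 0.33), have close paralogs, so their counts are uncertain. HHIPL2 and CA9 complete the 10 and are described with the structured domain.

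**Figure D1:**
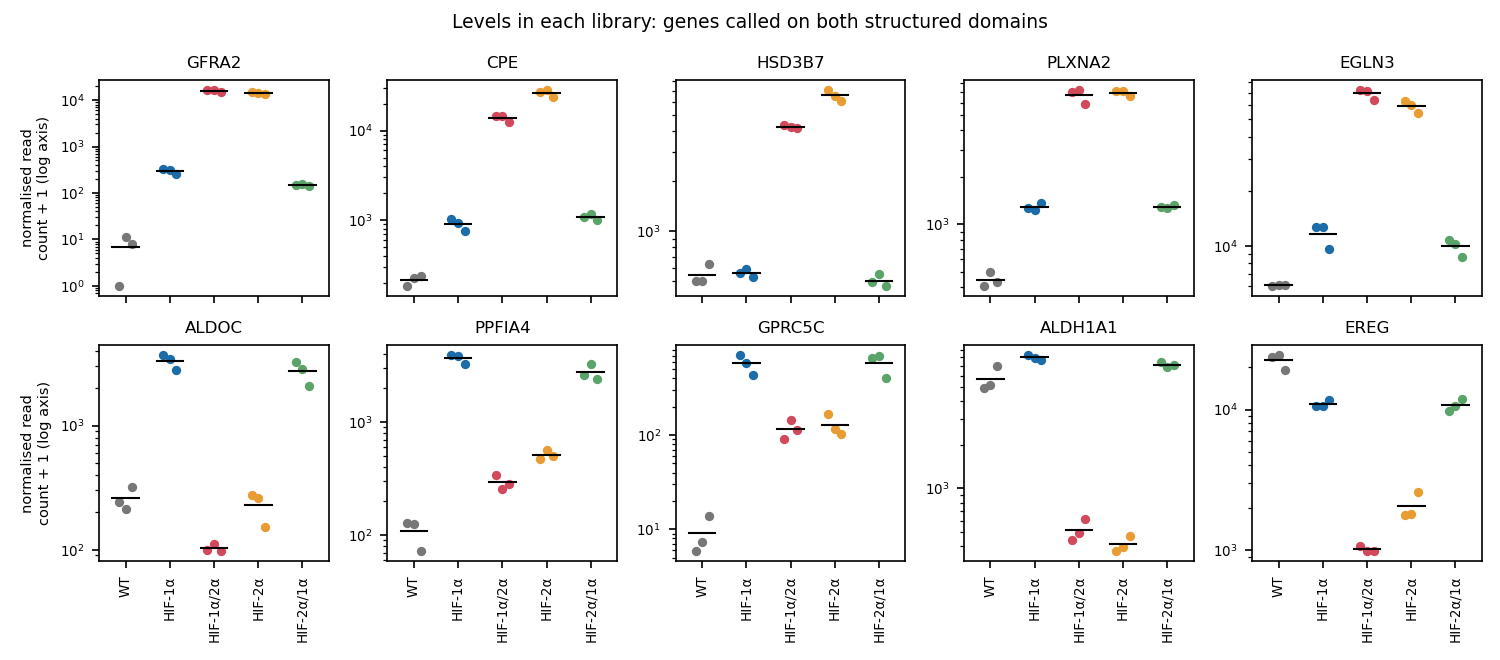
Normalised read count plus 1 (log axis) of 10 genes called on both structured domains in WT, HIF-1α, HIF-1α/2α, HIF-2α and HIF-2α/1α cells. Points are the 3 libraries of a group and bars the group means; in the upper row HIF-1α/2α and HIF-2α lie above the other groups, and in the lower row they lie below HIF-1α and HIF-2α/1α.

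The genes named by the study moved in both directions. CPE, a carboxypeptidase of prohormone processing, was at 14657, 14638 and 12398 in HIF-1α/2α against 1021, 937 and 761 in HIF-1α (3.96 ± 0.09, adjusted p = 2.91e-34). HSD3B7, an enzyme of bile acid synthesis, was at 4335, 4217 and 4182 against 555, 589 and 527 (2.95 ± 0.08), and HIF-1α did not separate from WT at 499, 500 and 629. PLXNA2, a semaphorin receptor, was at 7036, 7239 and 5886 against 1280, 1241 and 1377 (2.39 ± 0.08). TGFA, a ligand of the EGF receptor, was at 62072, 57272 and 47466 against 27241, 27702 and 25508 (1.07 ± 0.06, adjusted p = 3.67e-19). Without HIF-1α/2α replicate 1 the TGFA difference was 0.98, under the fold threshold.

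The remaining genes of this group were lower with the HIF-2α IDR. PPFIA4, a liprin, was at 338, 254 and 284 in HIF-1α/2α against 3932, 3848 and 3300 in HIF-1α (-3.63 ± 0.12, adjusted p = 3.07e-27), with WT at 126, 123 and 71. GPRC5C, an orphan receptor, was at 91.1, 143 and 111 against 706, 586 and 438 (-2.32 ± 0.20), with WT at 13.0 or less. Both chimera levels were thus above WT and well below HIF-1α. PTPRN, a protein of secretory granules, had 3 reads in the HIF-1α/2α libraries and 229, 210 and 146 in HIF-1α, a ratio of 198 (67 to 962). PGK1, phosphoglycerate kinase of glycolysis, was at 102020, 102355 and 100377 against 180561, 180390 and 174267. Its log2 difference of -0.80 ± 0.04 (adjusted p = 4.73e-19) did not reach the fold threshold.

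A total of 16 gene lists of HIF biology were then set beside the background of 1.76% higher and 2.90% lower calls. The lists were chosen with earlier results of these data known, and several hold genes that the study named. Their counts are therefore a description and add no support. Over all lists, 33 genes were called higher and 24 lower. Where a list had no call in a direction, DESeq2 made none there either, and the members at an unadjusted p under 0.05 in that direction numbered 4 for lower oxygen sensing genes, 5 for higher glycolysis genes, 3 for lower angiogenic genes, 3 for lower oxysterol enzymes, 4 for higher epithelial and mesenchymal genes, 2 for lower interferon genes and 5 for lower stress genes. Members that are not called at a large difference are low in reads; FLT1 with 0 reads in HIF-1α/2α and CHGA with 0 in HIF-1α are examples.

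**Figure D2:**
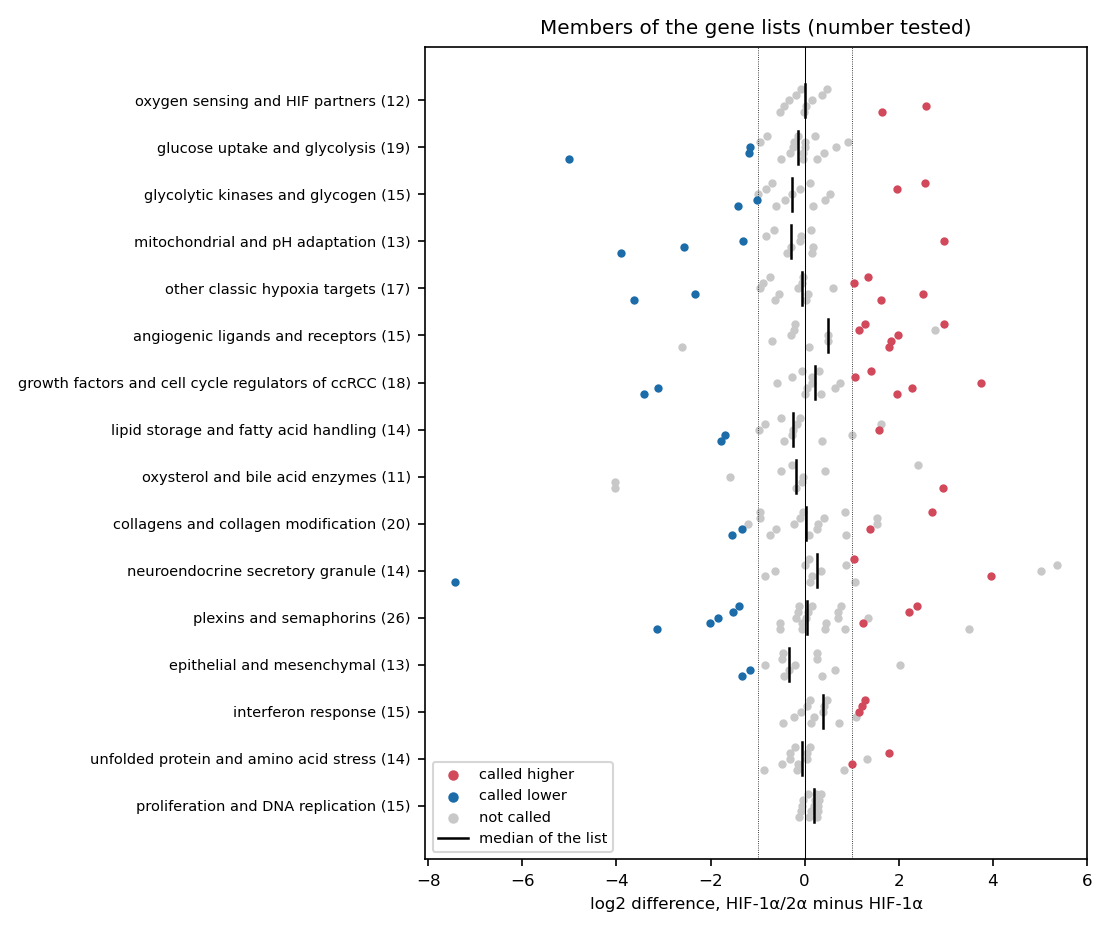
Log2 difference, HIF-1α/2α minus HIF-1α, of each tested member (points) of 16 gene lists, with the number tested in brackets; black bars are list medians and dotted lines mark a 2-fold difference. Called members lie on both sides in some lists and on a single side in others, all 6 called angiogenic genes lie on the right, and no member of the proliferation list is called.

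Among 12 tested genes of oxygen sensing and HIF partners, 2 were called higher and 0 lower, with a median log2 difference of 0.0058. They are EPAS1, which counts transgene reads, and EGLN3, a prolyl hydroxylase that marks HIF-α for degradation. EGLN3 was at 72505, 71430 and 63754 against 12645, 12737 and 9569 (2.59 ± 0.08, adjusted p = 2.24e-29), and at 6010 to 6095 in WT. EGLN1 was at a log2 difference of -0.51 and EGLN2 at 0.47, neither called. HIF3A had no read in the second batch.

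Glucose uptake and glycolysis held 19 tested genes, of which 0 were called higher and 3 lower, with a median of -0.14. GPI, glucose-6-phosphate isomerase, was at 23830, 26610 and 25192 against 58866, 57504 and 56288 (-1.17 ± 0.05), and ENO2, the neuronal enolase, at 11765, 13088 and 12289 against 29163, 28540 and 26588 (-1.17 ± 0.05). The groups did not overlap in either gene, and ALDOC is the third. At any fold, 9 members were lower and 5 higher at an adjusted p of at most 0.01, among them PGAM1 at -0.96 and the glucose transporters SLC2A1 at 0.93 and SLC2A3 at 0.67. Of all 28684 tested genes, 3159 were lower and 2685 higher by this criterion. LDHA was at 0.0056 and PKM at -0.03. The lower members thus include enzymes of several steps, and both glucose transporters pointed the other way.

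Of 15 kinases of glycolysis and glycogen genes, 2 were higher and 2 lower, with a median of -0.27. PPP1R3C, which targets protein phosphatase to glycogen, was at 8137, 7851 and 6494 against 1374, 1351 and 1107 (2.57 ± 0.10), and its relative PPP1R3B at 6083, 4693 and 5144 against 1477, 1211 and 1450 (1.96 ± 0.12). GYS1, glycogen synthase, was at 6588, 7142 and 6949 against 14188, 14033 and 14085 (-1.02 ± 0.05), and was at -0.98 without HIF-1α/2α replicate 1. The glycogen-targeting subunits and the synthase thus differed in opposite directions. PDK4, a pyruvate dehydrogenase kinase, was called lower at 18.2 to 31.7 against 32.2 to 78.9, a call lost without HIF-1α replicate 1 (adjusted p = 0.0135).

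Of 13 tested genes of mitochondrial and pH adaptation, 1 was higher and 3 lower, with a median of -0.29. CA12, a membrane carbonic anhydrase, was at 173563, 165152 and 146580 against 21252, 21380 and 20568 (2.96 ± 0.06, adjusted p = 8.97e-36), and WT was at 17436, 17440 and 18091. CA9, the other membrane carbonic anhydrase of this list, differed in the opposite direction, at 149, 132 and 121 against 2091, 2116 and 1935 (-3.91 ± 0.13, adjusted p = 1.45e-26). CA2, a cytosolic form, was at 605, 584 and 450 against 1403, 1379 and 1330 (-1.31 ± 0.09). BNIP3, a mitophagy receptor, was at 7503, 7677 and 7338 against 46068, 46915 and 42244 (-2.57 ± 0.05, adjusted p = 5.39e-35). BNIP3 in HIF-1α/2α lay at the WT level of 7594, 7901 and 7762, and its relative BNIP3L was at a log2 difference of 0.13.

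Of 17 other classic hypoxia targets, 4 were higher and 2 lower, with a median of -0.05. NDRG1, a stress-responsive gene, was at 326156, 344748 and 301466 against 63055, 60658 and 48538 (2.51 ± 0.08), and ADM, the vasodilator adrenomedullin, at 24540, 26348 and 25451 against 8727, 8427 and 7841 (1.63 ± 0.06). DDIT4, an inhibitor of mTORC1, was also higher (1.34 ± 0.10). ANKRD37 was higher at 1.05 ± 0.20 and fell under the fold threshold, at 0.96, without HIF-1α/2α replicate 2. PPFIA4 and GPRC5C are the lower ones. The histone demethylases KDM3A at -0.73 and KDM4B at -0.89 and the sterol regulator INSIG2 at -0.94 did not reach a 2-fold difference.

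Angiogenic ligands and receptors had 6 of 15 tested genes higher and 0 lower, with a median of 0.49. VEGFA was at 95027, 94792 and 93234 against 29041, 28524 and 25436 (1.79 ± 0.06, adjusted p = 9.48e-28). ANGPTL4, a lipoprotein lipase inhibitor, was at 3270, 3600 and 3165 against 726, 749 and 1098 (1.98 ± 0.12). The placental growth factor PGF (1.83 ± 0.12), PDGFB (1.15 ± 0.06) and endothelin EDN1 (1.29 ± 0.15) were also higher, and HIF-1α was above WT in PGF and ANGPTL4. EPO, at 11.5, 23.5 and 27.8 against 1.0, 5.8 and 0.9, was called at few reads. The EPO call was lost without HIF-1α replicate 1 or 3 or HIF-1α/2α replicate 2 or 3 (adjusted p = 0.011 to 0.0263), and the difference of 2.97 became 4.29 without HIF-1α replicate 2.

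Of 18 growth factor and cell cycle genes of ccRCC, 5 were higher and 2 lower, with a median of 0.23. CCND1, cyclin D1, was at 93056, 96048 and 88103 against 34897, 35761 and 35244 (1.41 ± 0.05), and WT was at 32604 to 34548. IGFBP3, which binds insulin-like growth factors, was at 487668, 479678 and 456418 against 122276, 124513 and 121156 (1.97 ± 0.07). The chemokine receptor CXCR4 was higher at lower levels, 137, 142 and 109 against 4.8, 20.4 and 3.8 (3.75 ± 0.42, and 4.89 without HIF-1α replicate 2). The lower genes are both ligands of the EGF receptor, like TGFA, which was higher. EREG was at 1065, 988 and 981 against 10673, 10569 and 11735 (-3.42 ± 0.10, adjusted p = 1.02e-29) and AREG at 48.4, 68.1 and 44.9 against 340, 513 and 557 (-3.12 ± 0.21). WT cells were at 19138 to 24333 for EREG, above both lines.

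Lipid genes had 1 of 14 higher and 2 lower, with a median of -0.25. PLIN2, a coat protein of lipid droplets, was at 27756, 27580 and 30017 against 9286, 9404 and 10040 (1.59 ± 0.06). SCD, stearoyl-CoA desaturase, was at 18872, 16945 and 16497 against 63188, 61683 and 55537 (-1.77 ± 0.07), and DGAT2, which forms triglycerides, at -1.69 ± 0.10. The droplet protein and the synthetic enzymes thus differed in opposite directions. HSD3B7 was the only call among 11 oxysterol and bile acid enzymes, whose median was -0.19, and 1 member was called lower with the replicate number as a block, without the filter on low counts or with the 6 libraries alone.

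Collagens and their modifying enzymes had 2 of 20 higher and 2 lower, with a median of 0.03. COL12A1 (1.40 ± 0.13) and COL5A1 (2.72 ± 0.15) were higher, and COL4A1 of basement membranes (-1.33 ± 0.05) and the crosslinking enzyme LOXL1 (-1.55 ± 0.08) lower. Epithelial and mesenchymal genes had 0 of 13 higher and 2 lower, with a median of -0.33. FN1, fibronectin, was at 239947, 240072 and 231651 against 606362, 616411 and 600171 (-1.34 ± 0.05), and the kidney cadherin CDH6 was at -1.16 ± 0.06. HIF-1α was above WT in CDH6, at 21603 to 24172 against 5049 to 5961.

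Plexins and semaphorins, receptors and ligands of axon guidance, had 3 of 26 tested genes higher and 5 lower, with a median of 0.05. Beside the receptor PLXNA2, the transmembrane ligands SEMA5B (2.21 ± 0.15) and SEMA6A (1.25 ± 0.06) were higher. The lower genes are the secreted ligands SEMA3A (-1.85 ± 0.14), SEMA3B (-2.01 ± 0.09), SEMA3E (-1.53 ± 0.20) and SEMA3F (-3.15 ± 0.11) and the transmembrane SEMA6B (-1.39 ± 0.23). SEMA3F was at 438, 514 and 381 in HIF-1α/2α against 4327, 4219 and 3367 in HIF-1α, with WT at 1286 to 1512. All class 3 semaphorins called were thus lower.

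The neuroendocrine granule list had 2 of 14 higher and 1 lower, with a median of 0.26: CPE, SYP and PTPRN. SYP, synaptophysin, was at 114, 89.3 and 139 against 51.0, 70.8 and 46.4 (1.04 ± 0.25), and was at 0.88 to 0.98 without HIF-1α replicate 1 or 3 or HIF-1α/2α replicate 3. Interferon response genes had 3 of 15 higher and 0 lower, with a median of 0.39. IFI6 was at 4943, 5411 and 6869 against 2380, 2330 and 2441 (1.29 ± 0.09). OAS1 was at 583, 807 and 1160 against 303, 415 and 430, and OAS2 at 459, 581 and 918 against 260, 291 and 297. None of the 3 passed a test against a 2-fold change. Replicate 3 of HIF-1α/2α was the highest in all 3 genes, and without it OAS1 was at 0.87 and OAS2 at 0.89, under the fold threshold. Unfolded protein and amino acid stress genes had 2 of 14 higher and 0 lower, with a median of -0.05. These were VEGFA and TRIB3, a pseudokinase of amino acid stress, which was at 1.01 ± 0.05 and under the threshold without replicate 3 of either line, at 0.98 to 0.99.

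Of 15 genes of the proliferation and DNA replication list, 0 were called by edgeR and 0 by DESeq2, and 9 were higher and 1 lower at an unadjusted p under 0.05. At an adjusted p of at most 0.01 and any fold, 8 of them were higher, within a range of -0.12 to 0.35 over the list and with a median of 0.20. By the same criterion 2685 of all 28684 tested genes were higher and 3159 lower. TOP2A, topoisomerase, was at 0.35 and MKI67 at -0.04.

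Promoter windows of genes that lie on opposite sides were read for the core of the hypoxia response element. Windows of 300 bases, from 250 before to 50 after the start, came from RefSeq on GRCh38.p14, and 209 of 283 named genes and list members matched. The letters ACGTG and GCGTG were searched on both strands and are in capitals below; CACGTG holds overlapping matches, 1 on each strand. The first 4 windows belong to genes that were lower with the HIF-2α IDR and the last 2 to genes that were higher, shown because the same letters occur in each.
ALDOC, chr17:28576846-28577145 on the minus strand: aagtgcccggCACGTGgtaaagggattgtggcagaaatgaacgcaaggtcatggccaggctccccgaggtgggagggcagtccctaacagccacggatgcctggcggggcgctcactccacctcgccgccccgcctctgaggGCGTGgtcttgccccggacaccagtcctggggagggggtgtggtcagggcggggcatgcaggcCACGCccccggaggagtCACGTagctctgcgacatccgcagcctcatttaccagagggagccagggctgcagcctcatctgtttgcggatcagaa
PPFIA4, chr1:203026241-203026540 on the plus strand: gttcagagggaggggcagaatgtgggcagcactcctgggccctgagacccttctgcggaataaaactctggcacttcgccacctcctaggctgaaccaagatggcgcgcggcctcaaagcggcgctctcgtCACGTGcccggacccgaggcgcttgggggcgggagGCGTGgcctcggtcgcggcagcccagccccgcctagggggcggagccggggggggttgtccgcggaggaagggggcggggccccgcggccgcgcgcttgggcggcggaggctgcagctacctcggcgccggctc
CA9, chr9:35673678-35673977 on the plus strand: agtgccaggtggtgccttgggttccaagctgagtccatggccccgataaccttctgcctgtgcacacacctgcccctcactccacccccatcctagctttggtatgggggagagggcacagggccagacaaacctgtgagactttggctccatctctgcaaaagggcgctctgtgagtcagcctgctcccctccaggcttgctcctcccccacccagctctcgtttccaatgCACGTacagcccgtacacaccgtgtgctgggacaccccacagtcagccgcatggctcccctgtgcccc
BNIP3, chr10:131981874-131982173 on the minus strand: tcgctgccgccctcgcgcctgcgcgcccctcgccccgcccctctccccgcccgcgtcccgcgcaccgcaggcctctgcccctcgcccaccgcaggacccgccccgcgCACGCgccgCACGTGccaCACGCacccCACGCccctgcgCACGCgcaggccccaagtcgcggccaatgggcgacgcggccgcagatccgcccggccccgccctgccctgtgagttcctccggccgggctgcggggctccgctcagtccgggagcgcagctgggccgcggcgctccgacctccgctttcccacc
CPE, chr4:165378758-165379057 on the plus strand: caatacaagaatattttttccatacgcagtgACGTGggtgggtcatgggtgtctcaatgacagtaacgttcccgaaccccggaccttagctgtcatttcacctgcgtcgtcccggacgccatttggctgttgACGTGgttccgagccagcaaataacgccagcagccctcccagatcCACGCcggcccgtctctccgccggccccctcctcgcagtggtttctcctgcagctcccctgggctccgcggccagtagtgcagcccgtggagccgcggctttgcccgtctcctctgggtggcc
PPP1R3C, chr10:91633022-91633321 on the minus strand: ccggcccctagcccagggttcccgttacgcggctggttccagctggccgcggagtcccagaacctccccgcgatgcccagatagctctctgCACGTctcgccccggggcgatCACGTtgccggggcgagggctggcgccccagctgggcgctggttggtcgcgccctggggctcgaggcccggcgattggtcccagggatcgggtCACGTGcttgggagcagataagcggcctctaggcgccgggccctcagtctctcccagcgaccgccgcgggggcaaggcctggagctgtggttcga

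The first base of the match nearest the start is at -28 in ALDOC, -84 in PPFIA4, -18 in CA9, -104 in BNIP3, -73 in CPE and -44 in PPP1R3C. ALDOC holds 3 ACGTG and 2 GCGTG, PPFIA4 2 and 1, CA9 1 and 0, BNIP3 2 and 4, CPE 2 and 1 and PPP1R3C 4 and 0. Neither motif lies in the windows of HSD3B7, PLXNA2, TGFA, EGLN3, PTPRN, ALDH1A1 or CASP14. Over all tested genes with a window, 59.3% of 13504 held either motif. The share was 49.8% of 293 among called higher genes and 50.5% of 533 among called lower genes. At a mean level of at least 100 these shares were 64.5% of 9398, 51.9% of 185 and 59.3% of 285. A match in these windows describes their letters and was not read as a binding site.

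The same exchange of IDRs on the HIF-2α structured domain, HIF-2α against HIF-2α/1α, was made in libraries that the first comparison does not use. EPAS1 reads above the WT mean were 11264 ± 243 per kb in HIF-2α and 7229 ± 1119 per kb in HIF-2α/1α (SD, n = 3). The transgene level and the IDR thus change together here too and cannot be told apart. In that comparison 516 genes (1.80%) were called higher and 399 (1.39%) lower with the HIF-2α IDR. Of the 505 genes called higher on the HIF-1α structured domain, 280 were called higher there too, which is 55.4% of these and 54.3% of the other list, and 1 was called lower. Of the 832 called lower, 285 were called lower there too, which is 34.3% of these and 71.4% of the other list, and 5 were called higher. The shares of these genes stand against the background of 1.80% and 1.39%, and the shares of the other list against 1.76% and 2.90%. Signs matched in 468 of 505 (92.7%) and in 745 of 832 (89.5%), against 63.6% of all tested genes. Among tested genes with a mean level of at least 100, signs matched in 73.8%. Over 12718 genes with a mean level of at least 100, the log2 differences of the comparisons correlated with a Pearson r of 0.79 and a Spearman rho of 0.647, where genes are not independent and both differences come from the same batch.

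The 505 higher genes had a median log2 difference of 1.81 on the HIF-1α structured domain, which chose them, and of 1.32 on the other. The 832 lower genes had -1.77 and -0.88, and since the first value of each pair chose the genes, the pair is given without a test. In Euclidean distance between group mean log2 levels over the same 12718 genes, HIF-1α/2α was 66.6 from HIF-1α, 44 from HIF-2α and 92.8 from WT, HIF-2α was 55.8 from HIF-2α/1α, and HIF-1α was 26.2 from HIF-2α/1α. The lines with the same IDR were thus closer than those with the same structured domain.

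**Figure D3:**
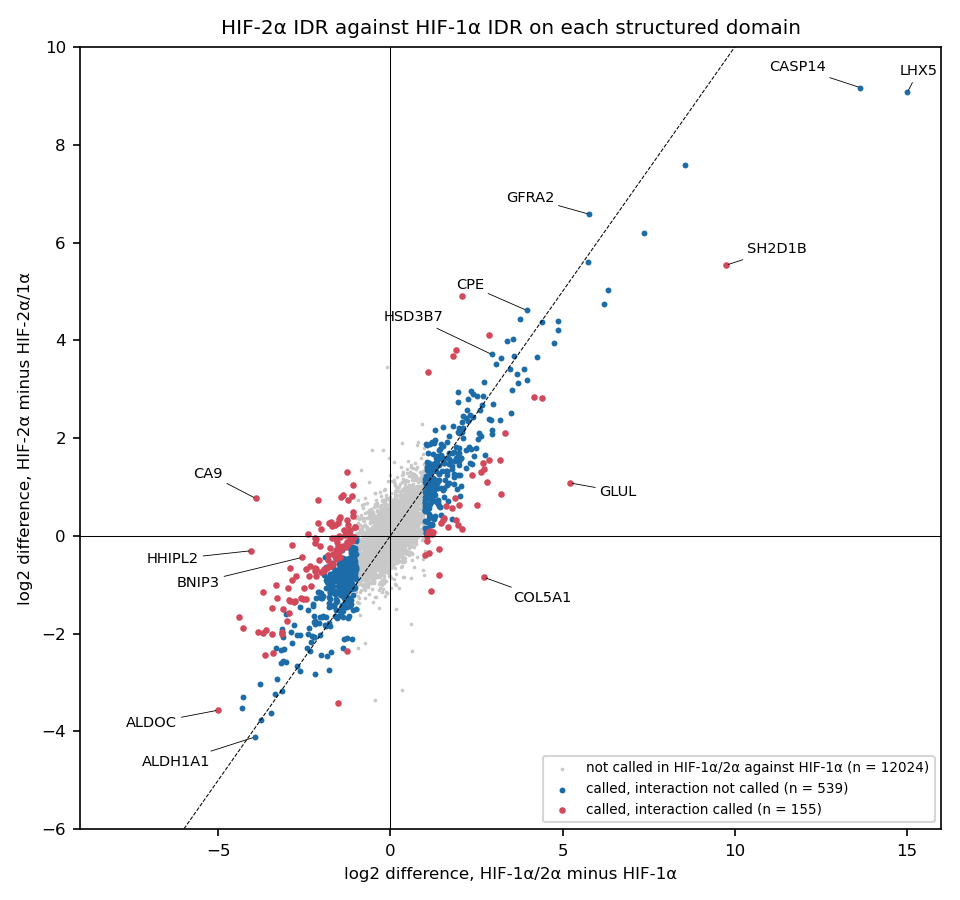
Log2 difference of HIF-1α/2α minus HIF-1α (x axis) against HIF-2α minus HIF-2α/1α (y axis) for 12718 genes with a mean level of at least 100; the dashed line marks equal differences. Blue points are 539 called genes without a called interaction, red points 155 with one, and most called points lie in the quadrants of equal sign. Fitted values of genes with almost no reads in a group, such as LHX5 and CASP14, depend on the prior count of the fit.

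Among the genes described above, the difference was close to equal on both structured domains in PLXNA2 (2.39 ± 0.08 and 2.43 ± 0.08), EGLN3 (2.59 ± 0.08 and 2.57 ± 0.08), ALDH1A1 (-3.95 ± 0.10 and -4.12 ± 0.11) and VEGFA (1.79 ± 0.06 and 1.70 ± 0.06). The difference between these differences was -0.04 ± 0.10 in PLXNA2, 0.02 ± 0.10 in EGLN3, 0.17 ± 0.14 in ALDH1A1 and 0.09 ± 0.08 in VEGFA. GPRC5C (-2.32 and -2.17) and CA2 (-1.31 and -1.25) were alike in size as well. In each of these genes the group order followed the IDR, with which the transgene level changed in both comparisons.

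Whether a gene's IDR difference depends on the structured domain was tested as an interaction, the difference on HIF-1α minus that on HIF-2α, in the same fit. It was called in 89 genes (0.310%) in the positive direction and in 249 (0.868%) in the negative direction. Of these 338 genes, 167 had an IDR difference called on the HIF-1α structured domain alone, 53 on the HIF-2α structured domain alone, 49 on both in the same direction, 6 on both in opposite directions and 63 on neither. The 6 were chosen here after their values were seen. PTGIS, prostacyclin synthase (-4.81 and 1.24), the ribonuclease RNASE1 (-2.37 and 2.7), GSDMA (-2.93 and 2.11), ADAMTSL4 (-1.07 and 1.04) and MAGEA3 (-1.26 and 1.30) were lower on HIF-1α and higher on HIF-2α, and PDLIM4 (1.18 and -1.14) was the reverse. Among the 832 lower genes 161 had an interaction in the same direction and 2 in the other, and among the 505 higher genes 53 and 6. The interaction contains the difference on the HIF-1α structured domain, which chose these genes. The choice therefore favours the same direction, and these counts are given as a description only.

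**Figure D4:**
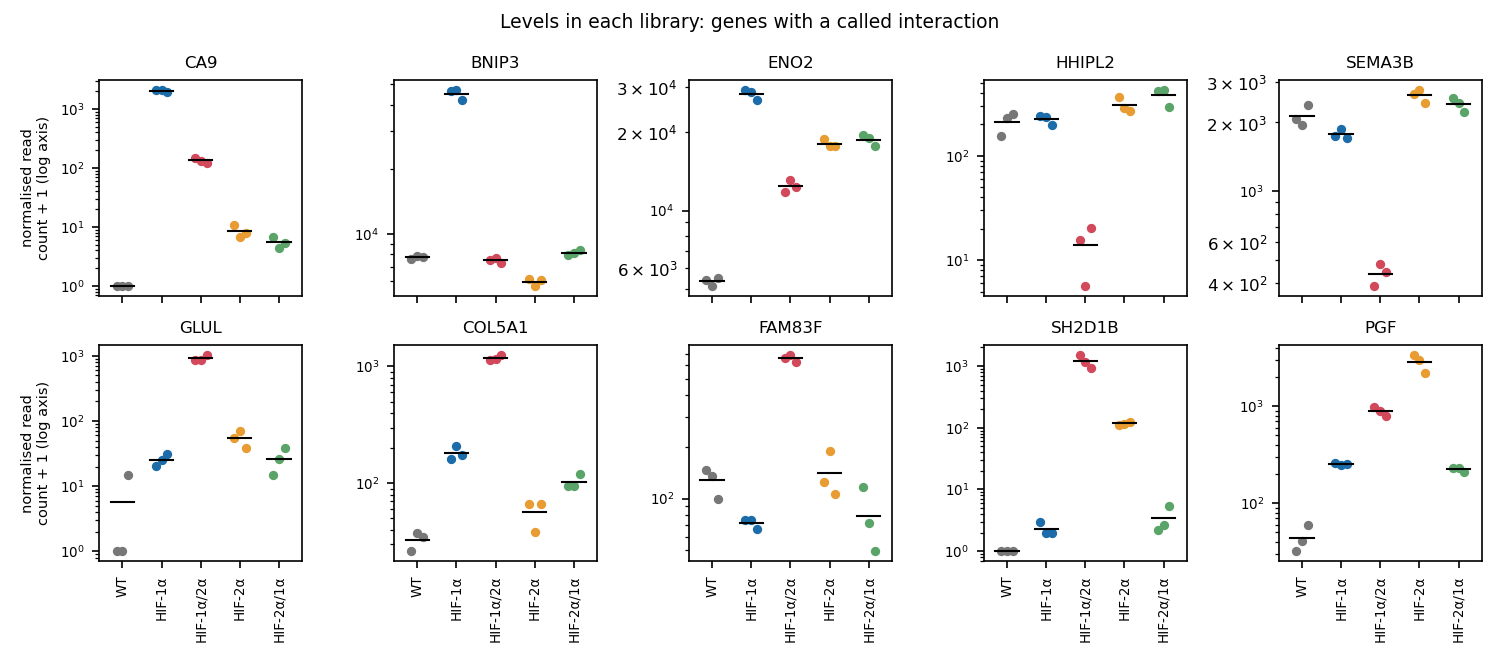
Normalised read count plus 1 (log axis) in the 3 libraries of each group (points, bars are means) for 10 genes with a called interaction. CA9 and BNIP3 are highest in HIF-1α, HHIPL2 and SEMA3B are low in HIF-1α/2α alone, and GLUL, COL5A1, FAM83F and SH2D1B are highest in HIF-1α/2α.

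The largest negative interactions at a mean level of at least 100, among genes also called on the HIF-1α structured domain, were in CA9, HHIPL2, TMEM63C and C1S. CA9 had no read in WT, 9.9 or less in HIF-2α and HIF-2α/1α, 121 to 149 in HIF-1α/2α and 1935 to 2116 in HIF-1α. Its IDR difference was -3.91 ± 0.13 on the HIF-1α structured domain and 0.76 ± 0.45 (not called) on the other, with an interaction of -4.67 ± 0.50 (adjusted p = 4.76e-09). CA9 reads thus rose above WT with the HIF-1α structured domain in both lines that carry it, and more so with the HIF-1α IDR. BNIP3 had an interaction of -2.13 ± 0.07 (adjusted p = 2.28e-25): it was at 5713 to 6151 in HIF-2α and 7960 to 8361 in HIF-2α/1α, so HIF-2α lay below the WT libraries and HIF-2α/1α slightly above them, while HIF-1α lay far above every other group. Its difference on the HIF-2α structured domain was -0.44 ± 0.05, under the fold threshold. ENO2 (-1.12 ± 0.08) differed by -0.05 ± 0.05 on the HIF-2α structured domain, where both lines were at 17660 to 19465.

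In HHIPL2 and SEMA3B the chimera stood apart from every other group. HHIPL2 was at 14.8, 4.7 and 19.2 in HIF-1α/2α and between 152 and 427 in the other 12 libraries of the batch, with an interaction of -3.74 ± 0.33. SEMA3B was at 386, 482 and 444 in HIF-1α/2α and between 1706 and 2776 elsewhere (-2.14 ± 0.12). In TMEM63C and C1S the chimera lay with WT, below the other transgene lines. TMEM63C, a member of a channel family, was at 2.3 to 23.5 in HIF-1α/2α and at 4.8 to 16.5 in WT, and at 82.4 to 194 in the other lines (-3.42 ± 0.50, and -4.15 without HIF-1α/2α replicate 3). C1S, a complement protease, was at 6.6 to 36.4 in HIF-1α/2α and 17.0 to 30.4 in WT and at 82.7 to 179 in the other lines (-2.93 ± 0.43).

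Among genes also called on the HIF-1α structured domain and at the same mean level, the largest positive interactions were in SH2D1B, GLUL, COL5A1 and FAM83F, all highest in HIF-1α/2α. GLUL, glutamine synthetase, was at 859, 860 and 1022 in HIF-1α/2α against 19.3, 24.2 and 30.3 in HIF-1α (5.22 ± 0.29), and at 36.9 to 70.4 in HIF-2α and 14.0 to 37.4 in HIF-2α/1α (interaction 4.14 ± 0.47, adjusted p = 1.04e-08). COL5A1, a fibrillar collagen, was at 1134, 1150 and 1248 in HIF-1α/2α, 161 to 207 in HIF-1α and 119 or less in the other groups (3.57 ± 0.24). FAM83F was at 659, 684 and 623 in HIF-1α/2α and at 190 or less elsewhere (2.37 ± 0.30). SH2D1B was at 112 to 123 in HIF-2α, below all HIF-1α/2α libraries, with an interaction of 4.21 ± 0.93 (adjusted p = 0.00161), and without HIF-2α/1α replicate 3 that call was lost (adjusted p = 0.0829). PGF went the other way, at 982, 901 and 796 in HIF-1α/2α against 3361, 3009 and 2218 in HIF-2α (-1.85 ± 0.17).

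The difference was also taken by chromosome, because a cell population can gain or lose part of a chromosome. The median log2 difference of HIF-1α/2α minus HIF-1α was 0.32 over 897 tested genes of chromosome 14, 0.14 on chromosome 11 and 0.12 on chromosome 6. On each other autosome and chromosome X it was within 0.1 of the median of all genes. Over genes with a mean level of at least 50 it was 0.14 on chromosome 6, 0.12 on chromosome 11 and -0.13 on chromosome 13, where the 3 libraries ranged from -0.21 to -0.077. Over the 434 genes of chromosome 14 with a mean level of at least 50, the 3 HIF-1α/2α libraries were at 0.34, 0.31 and 0.33 above the HIF-1α mean, an SD of 0.0136. HIF-1α/2α was at 0.40 above WT and HIF-1α at 0.076 above WT, and HIF-2α against HIF-2α/1α was at 0.11. EGLN3, PGF, TMEM63C and HIF1A lie on this chromosome. Of the other genes described above, EDN1 and COL12A1 are examples on chromosome 6 and ADM on chromosome 11. The part of these shifts in the differences of such genes was not tested. Without the genes of chromosomes 6, 11 and 14, 416 genes were called higher and 733 lower.

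**Figure D5:**
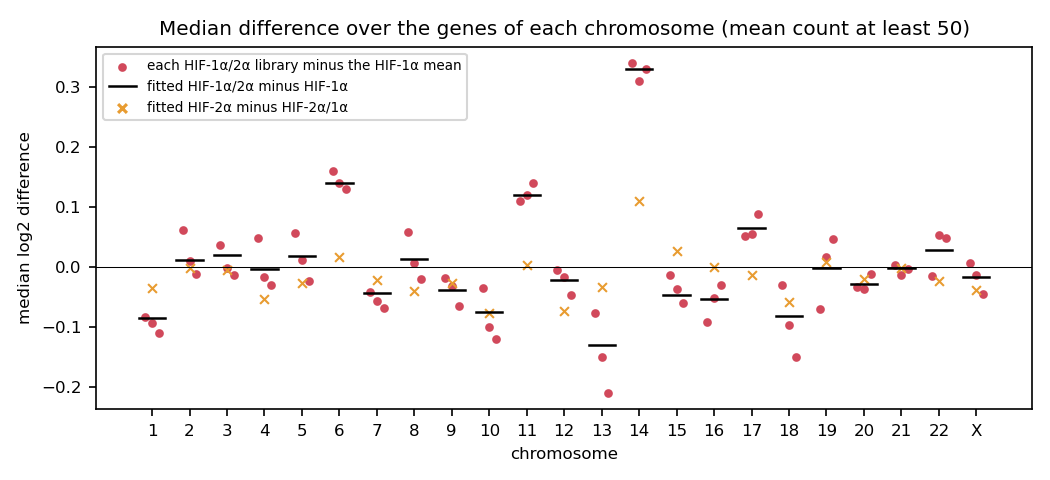
Median log2 difference over the genes of each chromosome with a mean level of at least 50: points are each HIF-1α/2α library minus the HIF-1α mean, bars the fitted HIF-1α/2α minus HIF-1α difference, and crosses the fitted HIF-2α minus HIF-2α/1α difference. On chromosome 14 the 3 points lie at 0.31 to 0.34, apart from the other chromosomes.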

How the data were processed

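Poly-A RNA libraries of the second batch (15 libraries, 3 per group) were made from TRIzol-extracted RNA with NEBNext kits and sequenced as paired reads. The authors aligned reads to hg38 with STAR, kept uniquely mapped reads and counted them on GENCODE release 32 genes with HTSeq in union mode without strand; the deposited values are raw counts per gene, and the submitters' processing notes name STAR 2.7 and HTSeq 0.11.1. Reads on paralogs and on overlapping or antisense genes are therefore uncertain, and transgene reads count on HIF1A or EPAS1. The 27 libraries of the first batch were not used.

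The analysis used edgeR 4.0.16 in R 4.3.3, with limma 3.58.1. Genes with a mean normalised count of at least 0.5 were kept, and all 5 groups were fitted in a single quasi-likelihood model after TMM scaling (factors 0.96 to 1.03), at 76366799 to 109642159 counted reads per library. Contrasts were HIF-1α/2α minus HIF-1α, HIF-2α minus HIF-2α/1α, their difference, and both lines against WT. Calls needed p at or under 0.01 after Benjamini-Hochberg adjustment together with a difference of 2-fold or more, as in the study's methods. Errors beside log2 differences are SE of the fit, and intervals and floors cover counting error only. Gene positions came from GENCODE release 44, which matched 28558 of the tested genes.

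The 6 libraries were chosen by their labels alone. The 16 gene lists and the genes in them were chosen with earlier results of these data known. Named genes are the 10 with the largest difference in each direction (called, mean at least 100 over the 6 libraries, groups without overlap), 11 genes of the study and of the HIF subunits, list members, and the 4 called genes with the largest interaction in each direction. Deviations from group means in same-numbered libraries correlated at 0.049, 0.069 and 0.17 for HIF-1α and HIF-1α/2α, so these numbers were not taken as pairs, and at 0.11, 0.17 and 0.11 for HIF-2α and HIF-2α/1α, which were taken as pairs from the data alone; the reported fit has no block, and the blocked counts are given with the alternatives. Alternatives were DESeq2 1.42.0, RLE factors, other filters, a replicate block, a test against a 2-fold change, fewer libraries and leaving out each library. The values of 1 called member of the growth factor and cell cycle list are not reported here.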

Additional observations from a re-analysis of the deposited data

Results flagged for a closer look

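In 21 of the 82 genes that the naming rule or a list call selected, the effect of the IDR differed between the structured domains by the interaction test, which is the log2 difference on the HIF-1α structured domain minus that on the HIF-2α structured domain. The interaction was negative in CA9 (-4.67), PTPRN (-4.28, and -5.18 without HIF-1α/2α replicate 3), HHIPL2 (-3.74), TMEM63C (-3.42), C1S (-2.93), KRT81 (-2.72), CYP1B1 (-2.39), SEMA3B (-2.14), BNIP3 (-2.13), GASK1B (-1.87) and PGF (-1.85). It was also negative, and smaller, in ALDOC (-1.44), PPFIA4 (-1.20), SEMA3F (-1.18), ENO2 (-1.12) and EREG (-1.03). The EREG value was -0.83 without HIF-2α replicate 3, -0.98 without HIF-1α replicate 3 and -0.97 without HIF-2α/1α replicate 1, each under the fold threshold. It was positive in SH2D1B (4.21), GLUL (4.14), COL5A1 (3.57), HIF1A (2.93) and FAM83F (2.37). The HIF1A value follows from the constructs, since HIF1A reads come from the transgene in HIF-1α, HIF-1α/2α and HIF-2α/1α. Over all tested genes the interaction was called positive in 0.310% and negative in 0.868%. Of the flagged genes, 8 were chosen by the size of their interaction and carry no independent weight. Most others were chosen by their difference on the HIF-1α structured domain, which is a term of the interaction. The 21 of 82 were therefore not read against the share over all tested genes. Against a 2-fold change, the interactions of SH2D1B, PTPRN, ALDOC, PPFIA4, SEMA3F, ENO2 and EREG were not called. The 6 genes called in opposite directions on the structured domains have a called interaction too and are not among the 21.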

How the results depend on the processing

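No alternative reversed a called difference of the 82 genes named by rule. Testing against a 2-fold change, which asks more of each gene, left 238 genes higher and 344 lower in HIF-1α/2α against HIF-1α, 211 higher and 127 lower in HIF-2α against HIF-2α/1α, 137 higher and 96 lower on both structured domains, and interactions in 11 positive and 41 negative genes. By this test 17 of the 82 genes were no longer called in HIF-1α/2α against HIF-1α: TGFA, ENO2, PDK4, GYS1, ANKRD37, PDGFB, EDN1, EPO, COL12A1, SYP, SEMA3E, SEMA6B, CDH6, OAS1, OAS2, IFI6 and TRIB3. Higher angiogenic genes went from 6 to 3, and lower genes of glycolytic kinases and glycogen from 2 to 0. The interactions of SH2D1B, ALDOC, PPFIA4, PTPRN, ENO2, EREG and SEMA3F, 7 in all, were not called by it either. The replicate block gave 537 higher and 885 lower on the HIF-1α structured domain, 563 higher and 433 lower on the HIF-2α structured domain, 113 and 304 interactions, and 292 higher and 309 lower on both. Under the block, GLUL became called (1.12) and OAS2 was no longer called (0.99) in HIF-2α against HIF-2α/1α, LY6K gained an interaction (1.48), and 25 in place of 24 list members were lower. Leaving out each library gave 448 to 478 genes higher and 747 to 800 lower on the HIF-1α structured domain, 438 to 523 and 343 to 407 on the HIF-2α structured domain, 73 to 89 positive and 213 to 260 negative interactions, and 28 to 34 higher and 23 to 27 lower list members. The median of chromosome 6 was 0.14 at a mean count of at least 50. Without a filter on low counts 108 and 295 genes had an interaction. With 3 libraries per group, genes close to a 2-fold difference move across the threshold with single libraries, and so do genes of few reads such as EPO.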
